A study of Mus musculus with 34 samples.

Results

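The hippocampus of young male mice was compared 1 week after repeated injections of kainate or saline. Kainate activates ionotropic glutamate receptors and provokes limbic seizures. All arrays labelled as kainate or saline hippocampus were taken, which gives 11 of the 34 arrays of the series, 5 from kainate mice and 6 from saline mice. Male mice received intraperitoneal injections on postnatal day 23, 3 in all and 2 h apart, of kainate at 15 mg/kg or of saline alone. The survivors were killed on postnatal day 30, so that kainate mice that died in between are not represented. Another 6 mice, given nicotine at 10 mg/kg on the same schedule, contributed to the estimate of the spread. Their arrays also entered the level filter, the choice of probe sets and the array clusters described below. The neocortex of the 3 groups served for the comparison between regions and for an alternative fit with all 34 arrays. Its saline arrays also served to check the tissue label. The labels number the arrays as biological replicates and name no strain, no seizure score and no link between a mouse's arrays.

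The hippocampus holds densely packed pyramidal cells and dentate granule cells, a smaller population of GABA-releasing interneurons, and astrocytes, oligodendrocytes and microglia. Kainate excites pyramidal cells, above all those of the CA3 field, and the seizures that follow are known to kill part of the pyramidal cells and interneurons. In the days after such an injury microglia divide and take up debris through lysosomes, and astrocytes enlarge and fill with intermediate filaments. The whole tissue was homogenised, so in every result below fewer cells of a type and less RNA per cell cannot be told apart.

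Values are signals on a linear scale, and fold changes are differences of log2(signal + 16) between group means with their standard error (SE). A probe set, the group of short probes that stands for 1 transcript, was called at a limma p-value adjusted by Benjamini-Hochberg under 0.05. Of 8695 probe sets tested, 243 were called, which is 2.79%. Of these, 160 were higher with kainate (1.84%) and 83 were lower (0.955%). The higher calls had a median log2 fold change of 0.90, with a highest value of 4.58, and 69 of them exceeded 2-fold. The highest value belonged to Cst7, whose saline signals of 16.2 to 52.6 lay under the filter level of 131. The size of its fold therefore depends on the constant added before taking logs. The lower calls were smaller in size, with a median of −0.44, and 6 of them exceeded 2-fold. When each gene was represented by its brightest probe set, 195 of 6426 genes were called (3.03%), 124 higher (1.93%) and 71 lower (1.1%). The 5 kainate arrays did not overlap the 6 saline arrays in 304 probe sets (3.5%), 201 of them higher and 103 lower. With each array centred on its median, the higher share of the calls went from 65.8% to 29.3%, and the median over all probe sets from 0.01 to −0.10. At an unadjusted p under 0.05 there were 1235 of the 8695 probe sets, which is the background for such counts in the lists below. No gene was called in the opposite direction under any alternative run. The hippocampal arrays were divided into 3 clusters, a number that was set and not found, by the bacterial ones among the control probe sets. Saline and kainate arrays of the same number always fell into the same cluster. With these clusters as a block, 339 probe sets were called, 198 higher and 141 lower, and all 195 genes were called. Of the called genes, 45 had 54 other tested probe sets, of which 47 had the same sign, 13 were called in the same direction and 0 in the opposite one. Values of these other probe sets are given below for some genes only.

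**Figure D1:**
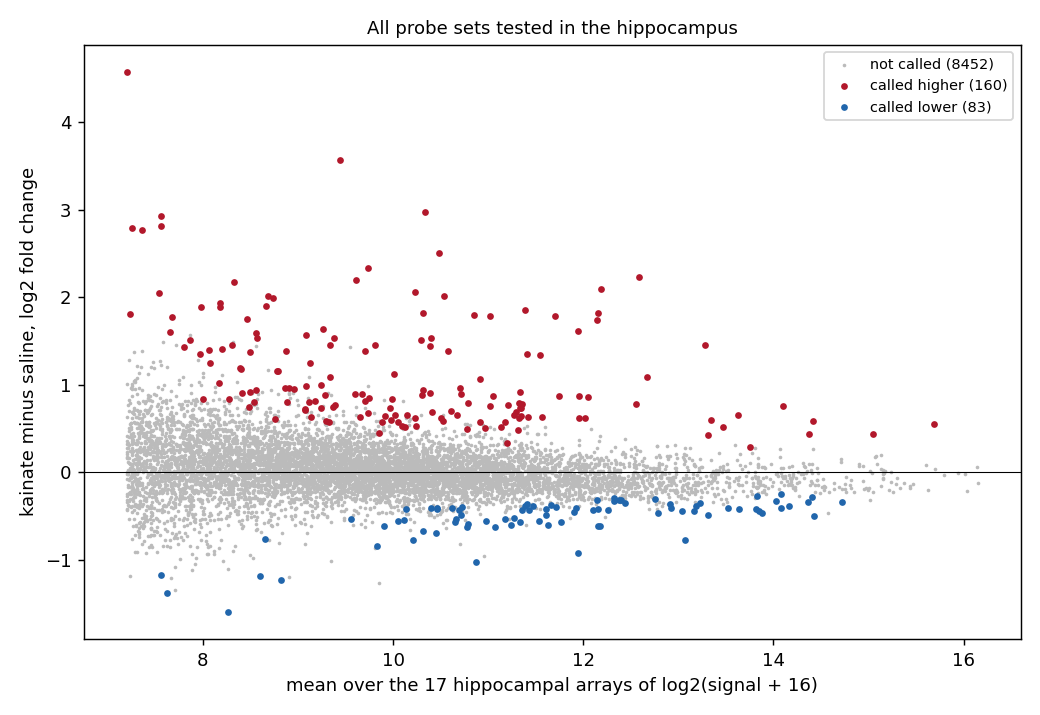
Each point is 1 of the 8695 probe sets tested, with its mean level over the 17 hippocampal arrays on the horizontal axis (log2 scale) and the kainate minus saline difference on the vertical axis (log2 fold change). The 160 probe sets called higher spread over all levels and reach 4.58 (Cst7, dim in the saline arrays), while the 83 called lower lie mostly among the bright ones.

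The lower calls lay among brighter probe sets, with a median saline signal of 3566, against 820 for the higher calls and 772 for all probe sets tested. When probe sets were divided by mean level into 4 equal classes, the brightest class held 57 probe sets called lower and 50 called higher, and its median log2 fold change was −0.06. In the dimmest class 3 were called lower and 27 higher, with a median of 0.09. Quantile normalization brought the medians of all 4 classes to between −0.03 and −0.02 and left 160 of the 195 gene calls.

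The tissue label was checked against marker genes. All 8 markers of hippocampal identity were measured, and their summed signal ran from 16736 to 20024 in the saline hippocampus and from 7289 to 7653 in the saline neocortex. The 5 measured neocortical markers summed to between 3360 and 5955 in the saline hippocampus and between 16381 and 18748 in the neocortex. With kainate the hippocampal markers summed to between 12886 and 14925, with 2 of 8 called lower (Crym and Calb1), and the neocortical ones to between 5229 and 6516, with 0 of 3 tested called. Calb1 did not mark the hippocampus here, with a saline mean of 2430 against 2775 in the neocortex. Of the uncalled hippocampal markers, Npy2r, Wfs1 and Dsp gave log2 values of −0.53, −0.39 and −0.32. Lct, Zbtb20 and Prox1 gave −0.06, 0.02 and 0.41. Microglial markers stood at 27957 to 45763 with kainate against 10775 to 11678 with saline, with 6 of 6 called higher. Astrocyte markers stood at 57600 to 64964 against 34299 to 39434, with 3 of 4 called. How far these shifts in microglial, astrocyte and hippocampal markers take part in the results below was not tested. The summed signals of kainate and saline arrays overlapped for oligodendrocytes (3 markers), neurons (3), endothelium (3), choroid plexus (3) and red cells (2), with 0 markers called in each. The 3 measured T and B cell markers and 2 of the 3 neutrophil markers lay below the level filter. The choroid plexus sum varied widely, from 595 to 9548 in saline and from 968 to 10927 in kainate arrays.

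Among 62 lists of genes grouped by function, which held 1602 tested genes, 130 genes were called, 94 higher and 36 lower. These totals count each gene only once. The lists overlap, so a called gene can be counted again in several lists below, and the counts of different lists are not separate results. A call was present in 42 lists and absent from 20. Over all 6426 genes the share called was 3.03%, which is the background for the counts in each list below. The lists were chosen with earlier results of these data known. A share above the background therefore describes a list and does not test it. Leaving out each of the 11 arrays in turn kept 118 of the 195 called genes in all 11 fits. A further 3 genes, Cst7, Lyz2 and H2-Q5, fell below the level filter in 5 of these 11 fits. They were called in the 6 fits that tested them, so their calls were not tested against the loss of every array. The remaining 74 lost the call in at least 1 fit, and each of the 11 arrays ended between 23 and 53 of these calls. Such genes are given below with the highest adjusted p that they reached when 1 array was left out.

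**Figure D2:**
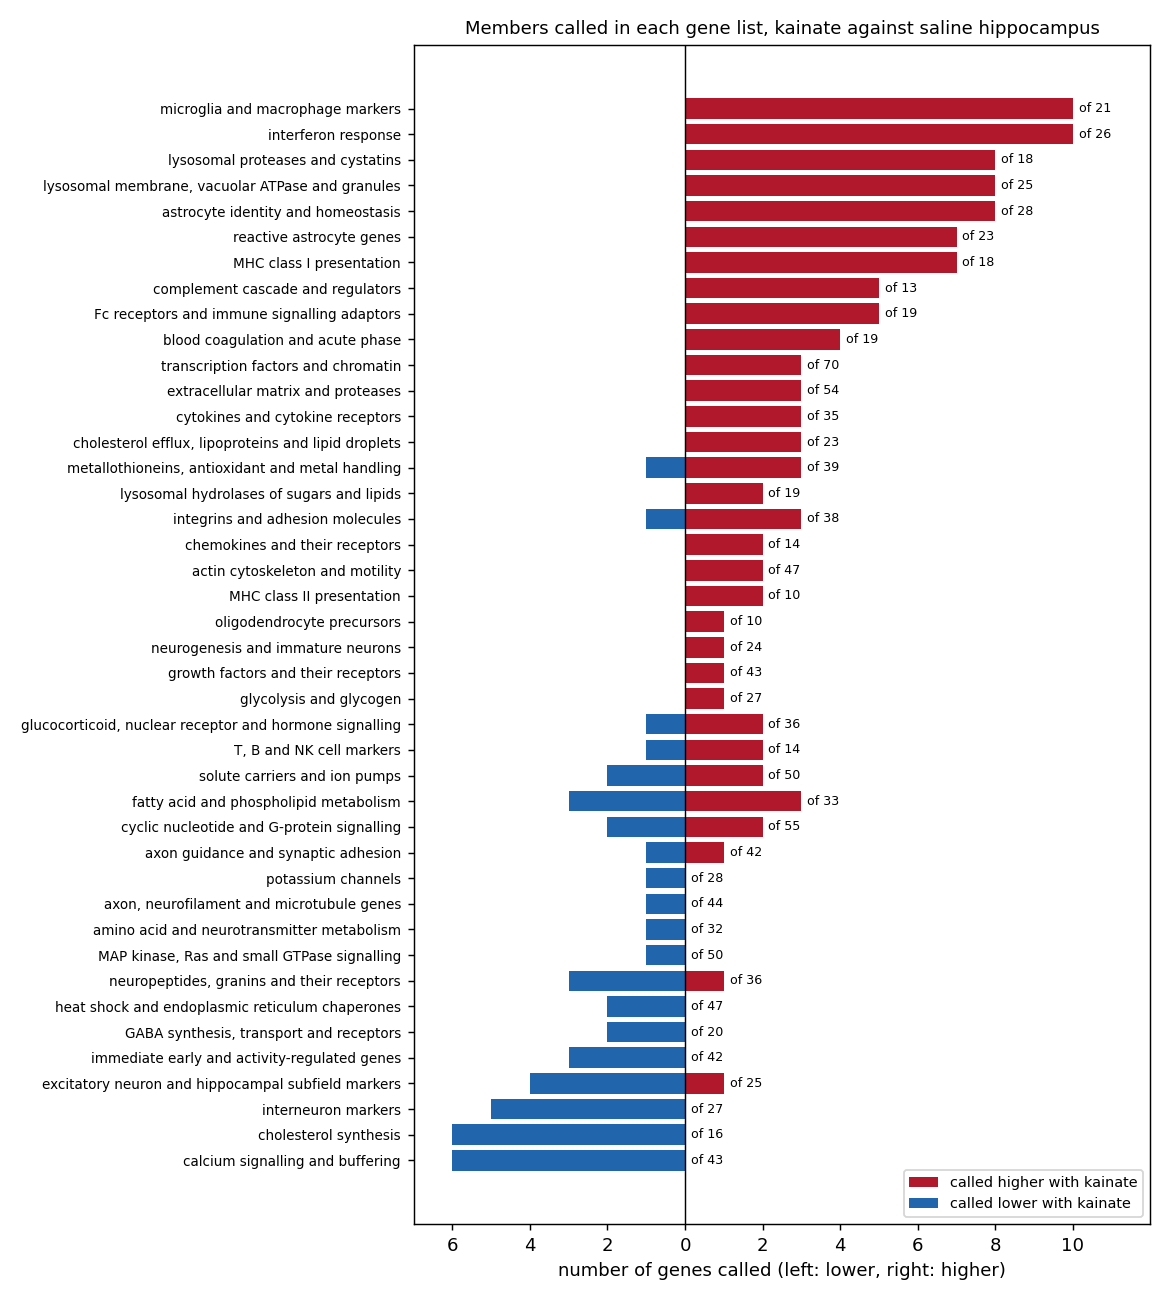
Bars give the number of genes called higher (right) and lower (left) with kainate in each of the 42 lists that held a call, with the number of tested members beside each bar. Lists of microglia, interferon response and lysosomal genes hold only higher calls, and cholesterol synthesis and calcium signalling only lower ones.

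Calls among the 3 lists of lysosomal genes were all in the higher direction. Of 18 lysosomal proteases and cystatins tested, 8 were called higher and 0 lower, with a median log2 fold change of 0.51 against 0.01 over all probe sets. Of 25 genes of the lysosomal membrane, the vacuolar ATPase and granules 8 were called higher and 0 lower (median 0.25), and of 19 hydrolases 2 higher and 0 lower (median 0.23). Ctsd encodes cathepsin D, the main aspartic protease of lysosomes. Its signal in the saline arrays ran from 5976 over a median of 7595 to 9297, and the kainate arrays gave 24080, 26093, 11949, 19086 and 25124. No kainate array reached down into the saline range, and replicate 3 was the lowest of them. The fold change was 2.76 (log2 1.46 ± 0.17 SE, adjusted p = 1.08e-05).

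Cathepsin B (Ctsb), a cysteine protease, stood at 11290 ± 729 (SD, n = 6) with saline and 17856 ± 1545 (SD, n = 5) with kainate, a 1.58-fold rise (adjusted p = 1.08e-05). Its 2 dimmer tested probe sets gave log2 changes of 0.49 and 0.13 and were not called. Also called were Ctsz, which encodes cathepsin Z (4.02-fold), Ctse, cathepsin E (1.66-fold), Lgmn, legumain, an asparagine-specific protease (1.5-fold), and Cst3, cystatin C, a secreted inhibitor of cathepsins (1.36-fold). Their adjusted p-values ran from 5.42e-05 for Ctsz to 0.00918 for Lgmn, and with median centring Cst3 was no longer called (adjusted p = 0.0783). Among the hydrolases, Man2b1, lysosomal alpha-mannosidase, rose 1.54-fold and Hexa, the alpha subunit of hexosaminidase A, 1.62-fold. Psap, the precursor of the saposins that help lipid hydrolases, stood at 20364 ± 2200 (SD, n = 6) and 21854 ± 1432 (SD, n = 5) and was not called.

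Grn encodes progranulin, a secreted protein that is taken up into lysosomes and whose loss impairs them. Its saline signals ran from 856.1 over a median of 1077 to 1259, and its kainate signals were 3389, 3126, 2087, 2620 and 3185. The groups did not overlap, and the fold change was 2.62 (log2 1.39 ± 0.13 SE, adjusted p = 6.34e-07). A dimmer Grn probe set gave 0.25 and was not called. Cd68, a glycosylated membrane protein of phagocyte lysosomes, rose from between 602.0 and 726.1 in the saline arrays to 2062, 2033, 1426, 1803 and 1685 (2.74-fold, adjusted p = 5.48e-08). Every kainate array was again above every saline array. The cholesterol-binding protein Npc2, which carries cholesterol out of the lysosome lumen, rose 1.73-fold and the tetraspanin Cd63, a marker of late endosomes, 1.72-fold (adjusted p = 0.000125 and 0.000161). Lamp2, a major lysosomal membrane protein, was called (1.7-fold, adjusted p = 0.0429) but lost the call without any of 9 arrays (highest adjusted p 0.135). Lamp1 stood at 16772 ± 2145 (SD, n = 6) and 20064 ± 1015 (SD, n = 5), and the vacuolar ATPase subunits Atp6v1a and Atp6v1b2 gave log2 values of −0.02 and −0.17, none of them called.

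Many lysosomal genes share an E-box motif in their promoters that is bound by the transcription factor TFEB. The letters TCACGTGA, read on both strands in the 250 bases before the RefSeq start, were found in 3 of 14 protease and cystatin genes, 2 of 21 membrane genes and 0 of 18 hydrolase genes with a listed promoter, against 0.907% of all 27025 genes in the table. Of the 98 genes called higher that had a promoter there, Ctsd alone held it. Its stretch of 60 bases around the match lies upstream of the start on the minus strand at chr7:142387893-142387952 (GRCm38.p6), and the capitals mark the match.
Ctsd: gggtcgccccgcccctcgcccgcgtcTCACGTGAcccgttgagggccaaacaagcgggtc

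Microglial genes were called higher more often than lower. Of 21 microglia and macrophage markers 10 were called higher and 0 lower, with a median log2 fold change of 0.99. Tyrobp encodes DAP12, the signalling adaptor of several activating receptors of microglia, among them TREM2. In the saline arrays its signal ran from 637.9 over a median of 822.4 to 1042, and in the kainate arrays it was 4261, 3826, 2377, 2843 and 4318. There was no overlap, and the change was 4.16-fold (log2 2.06 ± 0.18 SE, adjusted p = 1.03e-07). Csf1r, the receptor that keeps microglia alive, rose 2.53-fold (adjusted p = 1.6e-06), and 1 of its ligands, Csf1, rose 1.52-fold (adjusted p = 0.0114). A dimmer Csf1r probe set gave a log2 value of 0.39 and was not called.

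Among transcription factors of myeloid cells 3 were called. Irf8, which is needed for microglial development, had saline signals from 203.1 to 348.3 and kainate signals of 974.2, 789.0, 787.6, 807.5 and 812.8 (2.89-fold, adjusted p = 2.57e-05). Kainate replicate 1 was highest, and the 4 others lay close together. Cebpa, a factor of myeloid differentiation, rose 1.57-fold (adjusted p = 0.000295) and Lyl1, a factor of blood and myeloid progenitors, 1.92-fold (adjusted p = 0.00209). Spi1, which encodes PU.1, had signals of 201 ± 75.6 (SD, n = 6) and 445 ± 165 (SD, n = 5), a log2 value of 1.09 ± 0.40 SE that was not called (adjusted p = 0.174).

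Receptors and adaptors of phagocytosis followed. Of 19 Fc receptors and immune adaptors 5 were called higher and 0 lower (median 0.59). Fcgr1, the high-affinity receptor for immunoglobulin G, ran from 315.7 to 505.8 with saline and gave 750.1, 920.4, 738.6, 757.9 and 848.7 with kainate (1.94-fold, adjusted p = 0.00366). The groups were again apart. Blnk, an adaptor between receptors and calcium signalling, rose 1.77-fold (adjusted p = 0.00974). Lcp1, the actin-bundling plastin of leukocytes, rose 2.62-fold (adjusted p = 0.0179), with a highest value of 0.0599 when 1 array was left out. Among genes outside the lists, Cyba, the membrane subunit of the phagocyte NADPH oxidase that makes superoxide, had saline signals from 514.7 to 739.7 and kainate signals of 1979, 2191, 1252, 1200 and 2218 (2.63-fold, adjusted p = 5.8e-05). Kainate replicates 3 and 4 were lowest in Cyba, as they were in Tyrobp.

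Other genes of myeloid cells outside the lists were called as well. They were Pld4, a lysosomal nuclease of phagocytes (2.66-fold), Fermt3, the kindlin that activates integrins in blood cells (2.24-fold), Cd300c2, an immunoglobulin-like receptor (2.12-fold), Folr2, the folate receptor of macrophages (2.74-fold), and Tcn2, transcobalamin, which carries vitamin B12 (1.58-fold). Their adjusted p-values ran from 6.22e-05 for Tcn2 to 0.0038 for Folr2. Of 14 chemokine genes 2 were called (14.3%, against 3.03% of all genes), the receptor Cx3cr1 (1.79-fold) and the chemokine Ccl9, which went from between 126.1 and 295.3 to 771.7, 833.0, 711.4, 595.2 and 762.1 (3.81-fold, adjusted p = 0.00113). Of 16 genes of Toll-like receptors, NF-kB and the inflammasome limma called 0, and 2 had an unadjusted p under 0.05. Cd14, a co-receptor for bacterial lipopolysaccharide, stood at 1056 ± 119 (SD, n = 6) and 1523 ± 249 (SD, n = 5), with an adjusted p of 0.0549. The inflammatory cytokines Tnf and Il1b lay below the level filter, with means from 28.1 to 92.5 in both groups.

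Complement genes rose through the C1q chains. Of 13 complement genes 5 were called higher and 0 lower, with a median of 0.76. C1qb and C1qc, which together with C1qa form the C1q molecule that tags material for removal, rose 3.62-fold and 3.33-fold (adjusted p = 1.1e-08 and 2.58e-06). A dimmer C1qb probe set gave a log2 value of 0.59 and was not called. C1qc ran from 2581 to 4627 with saline and gave 10688, 14218, 8604, 8741 and 14492 with kainate. No kainate array came near the saline range. Clu, clusterin, a secreted chaperone that inhibits the terminal complement complex, rose from between 12180 and 17912 to 25632, 31282, 23855, 22473 and 29053 (1.7-fold, adjusted p = 0.000119). C3ar1, the receptor for C3a, was called at 2.84-fold (adjusted p = 0.0383) and lost the call without any of 7 arrays, up to 0.11.

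Interferon-induced genes and class I antigen presentation rose together with these. Of 26 genes of the interferon response 10 were called higher and 0 lower (median 0.62), and of 18 genes of class I presentation 7 were called higher and 0 lower (median 0.51). Ifitm3, a membrane protein that blocks virus entry, had saline signals from 546.1 over a median of 906.7 to 1304 and kainate signals of 2524, 3412, 1922, 2088 and 3017. The kainate arrays lay above the saline range, and the change was 2.84-fold (adjusted p = 1.36e-05). Also called were Lgals9, galectin-9 (1.86-fold, adjusted p = 0.000429), Ifi27 (1.49-fold, 0.000923) and Psmb8, a catalytic subunit of the immunoproteasome (2.61-fold, 0.00249). Irf7, a factor that amplifies the interferon response, gave 284 ± 98.2 (SD, n = 6) and 475 ± 111 (SD, n = 5) and was not called (adjusted p = 0.0917).

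B2m, the light chain of class I molecules, ran from 1408 over a median of 2243 to 4538 with saline and gave 11894, 10576, 4895, 6764 and 9948 with kainate. The lowest kainate array, replicate 3, was above the highest saline array, and the change was 3.46-fold (adjusted p = 0.000123). Tap1, which moves peptides into the endoplasmic reticulum for loading, rose 1.88-fold (adjusted p = 0.0142, and 0.0532 at most with 1 array left out), and its dimmer probe set gave a log2 value of 0.01. The heavy chain genes H2-D1, H2-K1 and H2-K2 were called with 3.47-fold, 3.46-fold and 11.9-fold. These genes are near-identical copies, so which of them a probe set measured is uncertain. Of 10 genes of class II presentation 2 were called, the protease Ctss and the invariant chain Cd74, which rose 1.74-fold (adjusted p = 0.00893). Gbp3, a guanylate-binding protein, rose 2.27-fold (adjusted p = 0.0227) and Isg15, a ubiquitin-like modifier, 3.7-fold (adjusted p = 0.043). With 1 array left out they reached 0.0705 and 0.112.

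Interferon acts on many of its target genes through response elements that contain the stretch GAAANNGAA. That stretch, read on both strands, was present within 250 bases before the RefSeq start in 9 of 23 genes of the interferon list with a listed promoter, 4 of them called, against 8.18% of all 27025 genes. Of the 98 genes called higher with a listed promoter 12 held it, and of 52 called lower, 1. The following windows of 60 bases come from the 4 called genes of the list and from B2m, with matches in capitals and overlapping ones joined. Ifit3 has a further match upstream of its window. They lie at chr19:34583401-34583460 (plus strand, Ifit3), chr4:156200851-156200910 (minus, Isg15), chr3:142559980-142560039 (plus, Gbp3), chr11:78984945-78985004 (minus, Lgals9) and chr2:122147522-122147581 (plus, B2m) of GRCm38.p6, each read in the direction of its gene.
Ifit3: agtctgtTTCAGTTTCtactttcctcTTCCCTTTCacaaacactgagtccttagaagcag
Isg15: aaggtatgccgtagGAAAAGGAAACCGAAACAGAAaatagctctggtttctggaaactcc
Gbp3: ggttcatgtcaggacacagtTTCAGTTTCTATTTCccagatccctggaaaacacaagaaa
Lgals9: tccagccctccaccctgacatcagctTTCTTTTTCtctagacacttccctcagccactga
B2m: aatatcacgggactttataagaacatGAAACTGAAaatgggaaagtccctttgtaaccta

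Ifit3 and Isg15 hold several overlapping or neighbouring matches in these windows, Lgals9 and B2m 1 each. A match describes the letters and shows neither binding nor a cause. Ifit3, an RNA-binding effector of the interferon response, rose from saline signals between 34.4 and 282.8 to 539.2, 1214, 694.1, 598.9 and 819.7 (7.05-fold, adjusted p = 0.000161). Its saline mean of 116 lay under the filter level of 131, so the size of the fold depends on the constant added before taking logs.

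**Figure D3:**
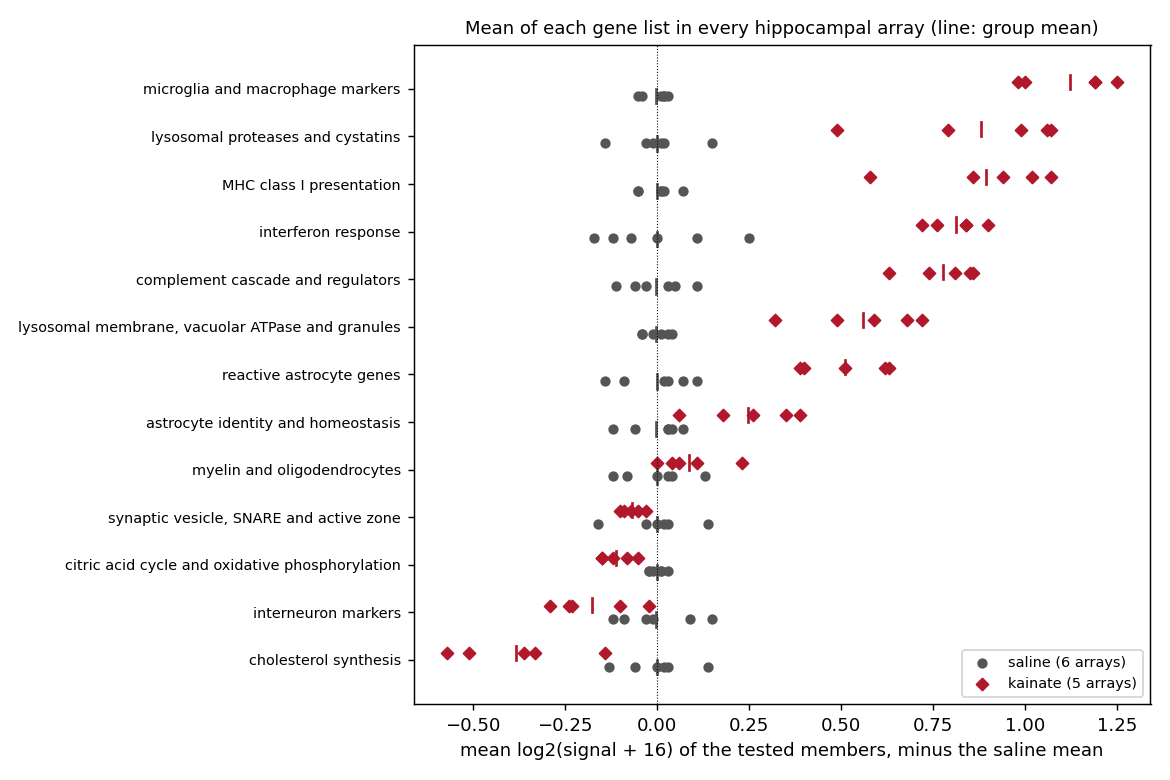
Each point is 1 hippocampal array, with the mean of log2(signal + 16) over a list's tested members minus the mean of the saline arrays on the horizontal axis and vertical strokes for group means. Microglial genes reach 0.98 to 1.25 in the 5 kainate arrays, while cholesterol synthesis lies between −0.57 and −0.14 and myelin genes overlap the saline arrays.

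Of 14 genes of T, B and natural killer cells 2 were called higher and 1 lower (21.4%), and these were Lag3, an inhibitory receptor of T cells (7.63-fold), Ighm and the kinase Zap70 (0.425-fold, adjusted p = 0.0343, up to 0.114 with 1 array left out), while the defining markers Cd3e, Cd3g and Cd79b lay below the filter. The dimmer tested probe sets of Zap70 gave log2 values of −0.38 and 0.09 and were not called. The saline median of Lag3, 61.95, lay under the filter level of 131, so the size of its fold depends on the added constant. Ighm, the heavy chain of immunoglobulin M, rose 1.6-fold. Of its 2 dimmer tested probe sets 1 was called higher (log2 0.84, adjusted p = 0.0421) and the other gave −0.21. Of 10 genes of neutrophils, mast cells and monocytes and 7 genes of red cells limma called 0, with 0 at an unadjusted p under 0.05.

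Astrocyte genes rose in part. Of 23 reactive astrocyte genes 7 were called higher and 0 lower (median 0.21), and of 28 genes of astrocyte identity and homeostasis 8 higher and 0 lower (median 0.26; 5 higher and 1 lower with median centring). S100a6, a calcium-binding protein, ran from 894.9 to 1006 with saline and gave 3100, 3483, 2422, 2170 and 2994 with kainate (2.92-fold, adjusted p = 4.42e-08). Here the saline arrays lay within a narrow band far below the kainate arrays. Osmr, the receptor for oncostatin M, rose 2.38-fold (adjusted p = 0.00241), and Lgals1, galectin-1, 1.91-fold (0.00699). Vim, the filament protein vimentin that often accompanies Gfap, gave a log2 value of −0.02 ± 0.44 SE from a dim probe set, with signals of 266 ± 139 (SD, n = 6) and 243 ± 109 (SD, n = 5).

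Among the genes of resting astrocytes, the gap junction protein Gja1 rose 1.52-fold (adjusted p = 0.00134), and the lipid phosphatase Plpp3 1.54-fold (0.0038). Fxyd1, phospholemman, a regulator of the sodium pump, had saline signals from 2662 to 3121 and kainate signals of 4888, 5313, 5933, 5024 and 5588. The groups lay far apart (1.83-fold, adjusted p = 2.35e-07). Adk, adenosine kinase, the astrocytic enzyme that clears the anticonvulsant adenosine, stood at 2417 ± 375 (SD, n = 6) with saline and 3746 ± 456 (SD, n = 5) with kainate, a 1.55-fold rise (adjusted p = 0.00273). Glul, the glutamine synthetase of astrocytes, and Slc1a2, their main glutamate transporter, gave log2 values of −0.16 and 0.24 and were not called. Ptprz1 and Sparcl1, both also expressed by other glia, were called with 1.41-fold and 1.23-fold, and lost their calls with median centring (adjusted p = 0.0503 and 0.271). Without single arrays Sparcl1 reached 0.112.

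Of 39 genes of metallothioneins, antioxidants and metal handling 3 were called higher and 1 lower (10.3%). Nfe2l2 encodes NRF2, the factor that switches on antioxidant genes. Its signal ran from 504.4 to 802.1 with saline and was 1139, 1211, 990.5, 1399 and 1127 with kainate. All kainate arrays were higher (1.86-fold, adjusted p = 0.000469). The metal-binding Mt1 and Mt2 rose 1.36-fold and 1.5-fold, while Mt3, the neuronal metallothionein, stood at 35818 ± 5178 (SD, n = 6) and 36825 ± 4380 (SD, n = 5). Gstm5, a glutathione transferase, was called lower at 0.826-fold (adjusted p = 0.0361, up to 0.112 with 1 array left out). Its 3 dimmer probe sets were not called and gave log2 values between −0.13 and 1.03.

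Acute phase and clotting genes gave 4 higher calls among 19 and 0 lower. A2m, the protease inhibitor alpha-2-macroglobulin, ran from 198.2 to 275.9 with saline and gave 1157, 965.4, 475.5, 653.0 and 916.6 with kainate (3.36-fold, adjusted p = 0.000392). Anxa5, annexin A5, which binds exposed phosphatidylserine, rose 1.62-fold (adjusted p = 0.000252), and Pros1, protein S, a bridge between dying cells and phagocyte receptors, 1.94-fold (0.00177). Serpina3n was the other call, at 3.05-fold. In all 4 genes the groups did not overlap.

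Enzymes of cholesterol synthesis fell, while the few called genes of cholesterol transport rose. Of 16 genes of cholesterol synthesis 6 were called lower and 0 higher, with a median log2 fold change of −0.44. Hmgcs1 makes the precursor of mevalonate. It ran from 2286 over a median of 2688 to 2980 with saline, and with kainate it was 2004, 1861, 1472, 1878 and 1916. All kainate arrays were below all saline arrays (0.688-fold, log2 −0.54 ± 0.10 SE, adjusted p = 0.00273). Idi1, Fdps and Sqle, which act later in the pathway, were called at 0.489-fold, 0.652-fold and 0.662-fold (adjusted p from 5.42e-05 to 0.0111). Idi1 ran from 2047 to 3013 with saline and gave 1170, 1589, 1253, 1095 and 987.1 with kainate. Fdft1 and Msmo1 were called too (0.672-fold and 0.627-fold, adjusted p = 0.0331 and 0.0228) and lost the call in 5 of 11 fits with 1 array left out (up to 0.0949 and 0.0831). Dhcr7, the last enzyme of the pathway, gave 659 ± 68.0 (SD, n = 6) and 464 ± 106 (SD, n = 5) and was not called (adjusted p = 0.0807).

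The factor SREBP2 drives these enzymes through sterol regulatory elements. The core TCACNCCAC, read on both strands, was found before the start of 1 of the 13 genes of the list with a promoter in the table, against 1.22% of all genes. It was also found in 2 of 98 genes called higher (Cnn3 and Gfap) and in 2 of 52 called lower (Crmp1 and Hmgcs1). The gene of the list was Hmgcs1, whose window of 60 bases on the plus strand at chr13:119690188-119690247 (GRCm38.p6) holds it in capitals.
Hmgcs1: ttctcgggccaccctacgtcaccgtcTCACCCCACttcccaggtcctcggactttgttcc

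Srebf1, which encodes SREBP1 and drives fatty acid synthesis, rose where the cholesterol enzymes fell. Its saline signals ran from 1837 to 2710 and its kainate signals were 3334, 3581, 3492, 3381 and 4026, all above the saline range (1.56-fold, adjusted p = 0.000496). Abca1, the pump that loads cholesterol onto apolipoproteins, ran from 185.8 to 794.3 with saline and gave 1531, 1284, 1295, 1280 and 1178 with kainate. Both of its tested probe sets were called (log2 1.53 ± 0.24 SE and 1.64), and the groups were apart. Apoe, the main apolipoprotein of the brain, rose from between 42134 and 54904 to 63863, 84230, 69825, 68031 and 70380 (1.47-fold, adjusted p = 0.000294). Of 23 genes of cholesterol efflux, lipoproteins and lipid droplets 3 were called higher and 0 lower (Abca1, Apoe and Npc2).

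Of 33 genes of fatty acid and phospholipid metabolism 3 were called in each direction. Besides Srebf1 the higher ones were Ltc4s, which makes leukotriene C4 (1.76-fold, adjusted p = 0.000396), and Gpam, which starts glycerolipid synthesis (1.5-fold, adjusted p = 0.0373). The lower ones were Scd1, a desaturase that makes oleate (0.76-fold, 0.0253), Faah, the enzyme that degrades the endocannabinoid anandamide (0.778-fold, 0.0191), and Alox12b (0.384-fold, 0.0476). With 1 array left out Gpam, Scd1, Faah and Alox12b reached adjusted p-values of 0.11, 0.0852, 0.0611 and 0.125.

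Among the lists of glycolysis and of the citric acid cycle and oxidative phosphorylation 1 gene was called. Hk2, the inducible hexokinase, was 120.7 to 276.9 with saline and 657.8, 544.2, 503.5, 442.1 and 576.5 with kainate (2.64-fold, adjusted p = 0.00973), and the arrays did not overlap. The other 26 genes of glycolysis and glycogen were not called. Of 51 genes of the citric acid cycle and oxidative phosphorylation limma called 0, although 11 had an unadjusted p under 0.05 in the lower direction and 1 in the higher. Their median log2 fold change was −0.15, and 41 of the 51 values were below 0. With median centring 6 of them were called lower, and with the control clusters as a block 2. Ckmt1, the mitochondrial creatine kinase and a member of neither list, was called lower at 0.698-fold (adjusted p = 0.0228, up to 0.0735 with 1 array left out). Its dimmer probe set gave a log2 value of 0.23.

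**Figure D4:**
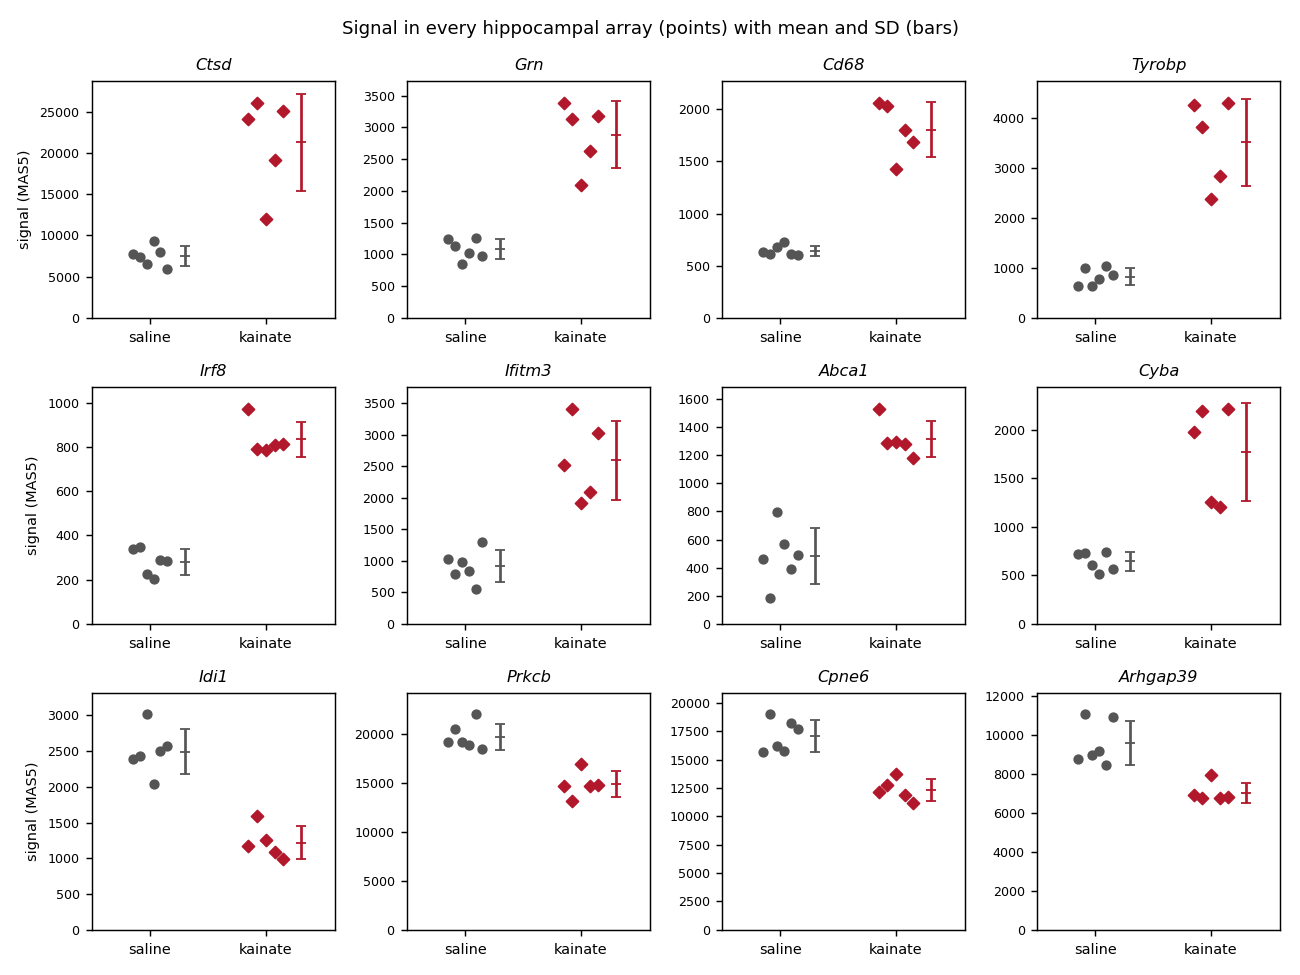
Points give the MAS5 signal of 12 genes in each of the 6 saline and 5 kainate hippocampal arrays on axes that start at 0, and bars give mean and SD. The 12 genes were picked among the called ones, and their groups do not overlap, as is the case for 3.5% of all probe sets tested. Other called genes, such as Ppp3r1, Cd9 and Astn1, do overlap. Ctsd, Grn, Cd68, Tyrobp, Irf8, Ifitm3, Abca1 and Cyba are higher with kainate and Idi1, Prkcb, Cpne6 and Arhgap39 lower.

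Most calls among neuronal lists were in the lower direction, with some genes, such as Calb1, Sst and Slc32a1, counted in several lists. The summed hippocampal identity markers of the kainate arrays, with Calb1 among them, lay below the saline range. The sums of the 3 general neuronal markers overlapped. Of 43 genes of calcium signalling and buffering 6 were called lower and 0 higher (10 lower with median centring, 4 with quantile normalization). Cpne6, a copine of hippocampal neurons that binds membranes in a calcium-dependent way, ran from 15641 over a median of 16959 to 18979 with saline. The kainate arrays gave 12172, 12725, 13744, 11879 and 11181, all below the saline range (0.723-fold, log2 −0.47 ± 0.07 SE, adjusted p = 0.000252). Prkcb, a calcium-dependent protein kinase C, ran from 18430 to 21975 with saline and gave 14675, 13196, 16904, 14714 and 14744 with kainate (0.753-fold, adjusted p = 0.00142). The dimmer probe set of Prkcb gave a log2 value of −0.15 and was not called. In the nicotine arrays Cpne6 ran from 15268 to 17092, above the kainate arrays. Prkcb ran from 15277 to 18450 there and overlapped both groups. Ppp3r1, the regulatory subunit of the phosphatase calcineurin, was called at 0.791-fold (adjusted p = 0.00473), with 1 kainate array inside the saline range, and not with quantile normalization (0.0761). Atp2a2, the calcium pump of the endoplasmic reticulum, and Ryr1, a calcium release channel, were called at 0.784-fold and 0.589-fold and reached 0.107 and 0.0802 with 1 array left out. Calb1, calbindin, fell to 0.648-fold (adjusted p = 0.00048).

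Of 25 markers of excitatory neurons and hippocampal subfields 4 were called lower and 1 higher. Besides Cpne6 and Calb1, the lower ones were Pkp2, plakophilin 2, a desmosomal protein (0.621-fold, adjusted p = 0.0156), and Crym (0.679-fold, 0.0357). Nnat, neuronatin, was called higher (1.43-fold, 0.0235), and not with median centring (0.0741). With 1 array left out these 3 reached 0.0557, 0.114 and 0.0696. Wfs1, a marker of CA1 pyramidal cells, stood at 4448 ± 521 (SD, n = 6) and 3393 ± 386 (SD, n = 5) and was not called (adjusted p = 0.0992). Prox1, the factor of dentate granule cells, gave 273 ± 81.8 (SD, n = 6) and 398 ± 204 (SD, n = 5), and Zbtb20 2608 ± 275 (SD, n = 6) and 2665 ± 385 (SD, n = 5).

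Among interneuron markers 5 of 27 were called lower and 0 higher. These were the peptides Sst, Cck and Cort, the buffer Calb1 and Slc32a1, the transporter that fills vesicles with GABA. Sst ran from 9321 over a median of 10549 to 12107 with saline and gave 5288, 6576, 6544, 6355 and 6404 with kainate, with no overlap (0.587-fold, adjusted p = 1.16e-05). Its nicotine arrays ran from 8563 to 10879, above the kainate arrays and in part below the saline range. Slc32a1 was called at 0.741-fold (adjusted p = 0.0273, up to 0.0808 with 1 array left out). Pvalb, the marker of fast-spiking basket cells, was 4982 ± 401 (SD, n = 6) and 5096 ± 1363 (SD, n = 5), and Calb2, calretinin, 2019 ± 234 (SD, n = 6) and 2017 ± 349 (SD, n = 5), and neither was called. Gad1, a GABA-synthesizing enzyme, gave a log2 value of −0.31 ± 0.09 SE (adjusted p = 0.0807). Of the other neuropeptides Penk, the precursor of enkephalins, rose from between 1275 and 2391 to 3986, 2848, 3010, 3666 and 2830 (1.83-fold, adjusted p = 0.00184), and Npy gave a log2 value of 0.31 ± 0.09 SE (adjusted p = 0.0568). A dimmer Penk probe set gave a log2 value of 0.4 and was not called.

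The Sst promoter holds the cyclic AMP response element TGACGTCA, through which the factor CREB couples activity to transcription. The element, identical on both strands, lay within 250 bases before the start in 5 of 32 neuropeptide and granin genes with a listed promoter (Sst, Sstr2, Chgb, Scg2 and Pcsk1), of which Sst alone was called. Over all genes the share was 1.77%, and among the called genes it was 4 of 52 lower and 0 of 98 higher. The window of 60 bases at chr16:23890859-23890918 (minus strand, GRCm38.p6) shows it in capitals.
Sst: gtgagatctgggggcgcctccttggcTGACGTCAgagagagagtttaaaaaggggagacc

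Counts among synaptic genes depended on the scaling. With median centring 6 of 29 genes of glutamate receptors, 2 of 45 of synaptic vesicles and 4 of 20 GABA genes were called lower, and with the control clusters as a block 4, 0 and 3. In the authors' scaling, of 29 genes of glutamate receptors and the postsynaptic density limma called 0, with 9 lower and 1 higher at an unadjusted p under 0.05 and a median of −0.19. The AMPA receptor subunit Gria2 stood at 26937 ± 894 (SD, n = 6) and 23567 ± 502 (SD, n = 5), with an adjusted p of 0.0668. Cnih2, cornichon 2, which is no member of the list and slows the closing of AMPA receptors, was called at 0.711-fold, from 11263 ± 1212 (SD, n = 6) to 7974 ± 563 (SD, n = 5) (adjusted p = 0.00407). Of 45 genes of synaptic vesicles, SNAREs and active zones 0 were called by limma, and 5 had an unadjusted p under 0.05. Of 20 GABA genes 2 were called lower (10.0%), Slc32a1 and Gabbr1, a subunit of the GABA-B receptor, which ran from 12229 to 16251 with saline and gave 10808, 12107, 10449, 9860 and 10385 with kainate (0.746-fold, adjusted p = 0.00742). Of 28 potassium channel genes 1 was called, the auxiliary subunit Kcnab2 (0.778-fold, adjusted p = 0.017, and 0.0591 without 1 array), and 0 of 26 sodium, calcium, chloride and cation channel genes were called by limma, with 5 at an unadjusted p under 0.05.

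Of 42 immediate early and activity-regulated genes 3 were called lower and 0 higher. Rasd1, a Ras-like protein induced by glucocorticoids, ran from 873.7 to 1111 with saline and was 573.1, 541.2, 707.1, 451.9 and 563.7 with kainate (0.561-fold, adjusted p = 0.00137). There was no overlap. Egr1 and Nr4a1, both transcription factors, were called at 0.673-fold and 0.587-fold (adjusted p = 0.0135 and 0.025, up to 0.0555 and 0.0703 with 1 array left out). In the nicotine arrays Egr1 ran from 2553 to 4596 and Nr4a1 from 792.9 to 1569, overlapping both the saline and the kainate arrays. Rasd1 ran from 903.6 to 1620 there, above the kainate arrays. Fos gave 844 ± 300 (SD, n = 6) and 539 ± 88.4 (SD, n = 5) and was not called. The kinase Mast3 was the 1 call among 50 genes of MAP kinase, Ras and small GTPase signalling, with saline signals from 4031 to 6482 and kainate signals of 2849, 2981, 2149, 2419 and 3199 (0.53-fold, adjusted p = 0.000725). Of 55 genes of cyclic nucleotide and G-protein signalling 2 were called in each direction. With median centring lower calls numbered 4 in the MAP kinase list and 6 in the G-protein list. Rgs10, a regulator of G proteins found in microglia, rose 1.66-fold (adjusted p = 0.00164), while Gng3, a neuronal G protein subunit, was called at 0.793-fold (adjusted p = 0.0184, up to 0.0647).

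Among the genes called lower that belong to no list were Arhgap39 (0.739-fold, adjusted p = 0.00256), Nckap1, a subunit of the WAVE complex that starts actin branching (0.763-fold, 0.00537), and Cttn, cortactin, which stabilizes actin branches (0.796-fold, 0.013). These 3 genes were called in every fit with 1 array left out. Arhgap39 ran from 8484 to 11056 with saline and gave 6937, 6761, 7949, 6756 and 6826 with kainate. Kainate replicate 3 was the highest of its group and still below every saline array. Of 47 genes of the actin list itself 0 were called lower and 2 higher, Cnn3, a calponin (1.39-fold, adjusted p = 0.0189), and Msn, moesin (1.63-fold, 0.0236), which reached 0.0669 and 0.0862 with 1 array left out. With median centring both lost the call (0.0935 and 0.0519), and 2 other genes of the list were called lower.

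In all, 65 called genes belonged to no list, 30 higher and 35 lower, of which 16 and 11 were called in all 11 fits with 1 array left out. Further lower ones among these were Pip5k1b, a kinase that makes the lipid PIP2 (0.682-fold), Ppp1cc, a catalytic subunit of protein phosphatase 1 (0.746-fold), Maged1, an adaptor of neurotrophin receptor signalling (0.755-fold), Ptpru, a receptor tyrosine phosphatase (0.677-fold), and Cdk14, a cyclin-dependent kinase (0.714-fold, with a log2 value of 0.02 in its dimmer probe set). Further higher ones were Kcne1l, an auxiliary potassium channel subunit (3.98-fold), Dhrs1, a short-chain dehydrogenase (1.54-fold), AU020206 (2.55-fold), Ddr1, a collagen receptor (1.42-fold), Rin2, an activator of the endosomal GTPase RAB5 (1.84-fold), Arhgap45 (1.95-fold), F11r, a junctional adhesion molecule (1.67-fold), and the motor protein Myo10 (1.57-fold). Kcne1l ran from 125.8 to 430.3 with saline and gave 855.1, 1220, 1015, 989.6 and 1067 with kainate. The other values of these genes lay between adjusted p-values of 0.000163 and 0.0114.

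Matrix and adhesion genes gave a few higher calls. Of 54 genes of the extracellular matrix and its proteases 3 were called higher and 0 lower (5.56%, against 3.03% of all genes). Bgn, the proteoglycan biglycan, ran from 1204 to 1819 with saline and gave 2552, 2921, 2635, 2472 and 2430 with kainate (1.73-fold, adjusted p = 0.00403). Sparc, a secreted collagen-binding protein, rose 1.55-fold (adjusted p = 0.00966), and not with median centring (0.0508). Among 38 integrins and adhesion molecules 3 were called higher and 1 lower (10.5%). Itgb5, an integrin subunit through which phagocytes bind dying cells, rose from between 1460 and 1960 to 3246, 2890, 3050, 2804 and 3136 (1.7-fold, adjusted p = 3.46e-05), and the tetraspanin Cd9 rose 2.09-fold (0.00379). A dimmer Itgb5 probe set gave a log2 value of 0.26 and was not called. Of 43 growth factors and their receptors 1 was called (2.33%), Mdk, the heparin-binding midkine, at 1.56-fold (adjusted p = 0.0066). Bdnf gave 2197 ± 393 (SD, n = 6) and 1920 ± 242 (SD, n = 5).

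Several functions gave 0 calls by limma. They included the 17 tested genes of myelin and oligodendrocytes, 32 of endothelium and vessels, 37 of the cell cycle and DNA replication, 30 of cell death and the p53 response, 44 of Wnt, Notch, Hedgehog and TGF-beta signalling, 38 of the proteasome and ubiquitin, 20 of cytosolic ribosomal proteins, 21 translation factors, 41 of RNA splicing and 18 of the circadian clock. At an unadjusted p under 0.05 these lists held, in that order, 2, 3, 8, 3, 6, 7, 5, 2, 2 and 4 genes. Myelin basic protein (Mbp) was 25160 ± 3213 (SD, n = 6) and 27914 ± 4189 (SD, n = 5). Mki67, a marker of dividing cells, was 259 ± 52.7 (SD, n = 6) and 308 ± 57.0 (SD, n = 5), and Dcx, a marker of young neurons, 695 ± 199 (SD, n = 6) and 786 ± 166 (SD, n = 5). Of 47 heat shock and endoplasmic reticulum chaperones 2 were called lower, Dnajb1 (0.751-fold) and Hspa5 (0.744-fold), which reached 0.112 and 0.117 with 1 array left out. With median centring 10 of the 47 were called lower.

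A few further lists held isolated calls, to be read against 3.03% of all genes. The share called was 8.57% for cytokines, 4.29% for transcription and chromatin factors and 4.76% for axon guidance. It was 8.0% for solute carriers, 2.27% for axon and microtubule genes and 8.33% for glucocorticoid and nuclear receptor signalling. Of 35 cytokines and their receptors 3 were called higher (Csf1, Csf1r and Osmr), and of 70 transcription and chromatin factors 3 (Irf8, Cebpa and the mRNA-decay factor Zfp36l1, 1.64-fold). Of 42 genes of axon guidance and synaptic adhesion, Astn1, astrotactin, a neuronal protein of glial-guided migration, was called lower (0.661-fold, adjusted p = 0.00618), and the semaphorin receptor Plxnb2 was called higher (1.44-fold, 0.0427). Of 50 solute carriers and ion pumps 2 were called higher (Fxyd1 and Abca1) and 2 lower, Slc32a1 and the neuronal glutamate transporter Slc1a1 (0.71-fold, adjusted p = 0.0303). Crmp1, a collapsin response mediator of growth cones, was the 1 call among 44 axon and microtubule genes (0.806-fold, adjusted p = 0.0361), against 5 lower calls with median centring. With 1 array left out Zfp36l1, Plxnb2, Slc1a1 and Crmp1 reached 0.0983, 0.115, 0.101 and 0.106. Of 36 genes of glucocorticoid and nuclear receptor signalling Mt1 and Mt2 were called higher and Nr4a1 lower. Lists of choroid plexus (16 genes), of monoamine, cholinergic, purine and cannabinoid receptors (23) and of other brain regions (11) gave 0 calls by limma, with 0, 2 and 2 genes at an unadjusted p under 0.05.

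The kainate effect was then compared between hippocampus and neocortex with all 34 arrays. The difference between the 2 effects was called for 69 of 8695 probe sets (0.794%), with 63 larger in the hippocampal direction and 6 smaller. Among the 195 genes called in the hippocampus it was called for 57, of which 52 were more positive and 5 more negative in the hippocampus. In the neocortex itself 1 probe set was called, the brightest one of Gfap, at a log2 fold change of 1.07 (adjusted p = 1.92e-06).

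Laptm5, a lysosomal membrane protein of blood cells, was 2042 ± 169 (SD, n = 6) and 5227 ± 491 (SD, n = 5) in the hippocampus and 2168 ± 259 (SD, n = 6) and 2213 ± 186 (SD, n = 5) in the neocortex. The effects differed by 1.31 ± 0.13 SE on the log2 scale (adjusted p = 8.77e-09). Mpeg1, the pore-forming protein of macrophages, differed by 2.84 ± 0.30 SE, and Grn by 1.33 ± 0.18 SE (adjusted p = 6.96e-08 and 1.74e-05). Ctsd, Ctsb, Npc2, Man2b1 and Hexa of the lysosomal lists differed as well, by 1.47, 0.72, 0.79, 0.67 and 0.72. Gfap, the astrocyte filament protein, had effects of 2.23 and 1.07, which differed by 1.16 ± 0.17 SE (adjusted p = 4.35e-05). The 5 genes more negative in the hippocampus were Calb1 (−0.80), Idi1 (−0.90), Msmo1 (−0.91), Cpne6 (−0.52) and Cdk14 (−0.58), with adjusted p-values from 6.49e-05 to 0.0423. The effects on Sst and Cck were not called as different between the regions, which does not show that they were alike.

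**Figure D5:**
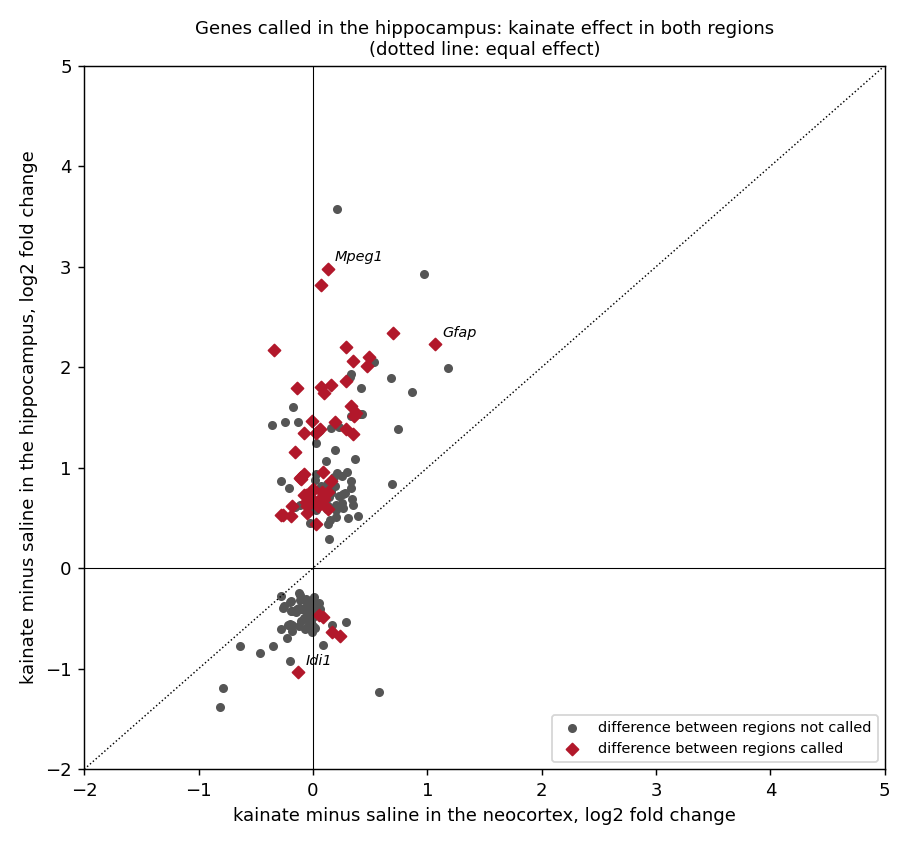
Each point is 1 of the 192 genes called in the hippocampus that were also tested in both regions, with the kainate minus saline log2 fold change in the neocortex on the horizontal and in the hippocampus on the vertical axis. Most points lie near 0 on the neocortical axis; the 57 diamonds are the genes whose effects differed between the regions.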

How the data were processed

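RNA was measured on Affymetrix oligonucleotide arrays. The deposited intensities are linear signals that the authors made with MAS5 (version not stated), as named in the submitters' processing notes. This method scales each array to a common level, so a value is relative to the rest of its array: trimmed means were 1000.5 to 1000.6, and medians ran from 381 to 391.2 in saline and from 403.4 to 438.5 in kainate hippocampus. The authors' scaling was kept, and detection calls were not used here.

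Control probe sets (66 of 12488) and those below the 30th percentile of mean log2(signal + 16), a signal of about 131, were left out, which left 8695. limma 3.58.1 (lmFit, eBayes with intensity trend) in R 4.3.3 was fitted to the 17 hippocampal arrays, or to all 34 arrays, treated as independent, for the difference between regions. Adjusted p-values are limma's with Benjamini-Hochberg adjustment, over all probe sets tested. The fit was first tested on simulated data. P-values measure the spread between the mice of this experiment, and the number of arrays limits the precision. Fold changes on this scale understate changes of dim genes.

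Genes were named from the platform annotation where a probe set had 1 symbol, with the brightest probe set standing for the gene. Named genes were the called list members with the smallest adjusted p (up to 4 per direction, 8 in long lists), uncalled members by level, the called genes in no list and the 12 most extreme fold changes in each direction. For regions they were the genes with the 10 smallest adjusted p-values among those called in the hippocampus. Uncalled genes given by value were in part chosen outside this order, after their values were seen, among them Tnf, Il1b, Spi1, Vim and Mki67. The lists, members and tests were chosen with earlier results of these data known. Promoters are RefSeq's (GRCm38.p6), matched by symbol for 98 of 124 genes called higher and 52 of 71 called lower. They were also searched for AP-1, PU.1, NF-kB and EGR1 sites and for the metal response element, whose counts are not given here. Same-numbered kainate and saline arrays did not all deviate together (correlations −0.0547 to 0.25), so the main fit has no block, although same-numbered arrays fell into the same cluster of control probe sets. Alternatives changed the added constant, filter, scaling, arrays in the fit, trend, array weights and blocks, and left out each array in turn.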

Additional observations from a re-analysis of the deposited data

Results flagged for a closer look

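Among 107 genes with values in every array, 13 of 214 groups held an array whose distance from its nearest neighbour was large for the range of its group, and chance alone marks about 1 in 20 groups. In the saline group, replicate 1 was lowest in C1qa (2646, next 3180) and highest in H2-K1 (2949, next 1470). Saline replicate 3 was highest in Anxa5 (2586, next 2153) and Rgs10 (1128, next 888.9). Saline replicate 2 was lowest in Ptprz1 (1200, next 1568) and highest in Zap70 (810.6, next 622.9), and saline replicate 5 was highest in Slc1a1 (2607, next 1931). In the kainate group, replicate 1 was lowest in Sst (5288, next 6355) and highest in Irf8 (974.2, next 812.8). Kainate replicate 3 was lowest in H2-K2 (2893, next 4379) and Hmgcs1 (1472, next 1861) and highest in Arhgap39 (7949, next 6937). Kainate replicate 5 was highest in Astn1 (2751, next 1793).

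The kainate effect differed between hippocampus and neocortex by limma's test of the difference. Among the genes called in the hippocampus, the 10 with the smallest adjusted p all had the larger effect there. Because they were chosen among genes called in the hippocampus, that direction is no separate result. On the log2 scale the difference was 1.62 ± 0.15 SE for Ctss (adjusted p = 8.77e-09), 1.31 ± 0.13 for Laptm5 (8.77e-09), 1.65 ± 0.16 for C1qa (1.09e-08), 2.84 ± 0.30 for Mpeg1 (6.96e-08) and 1.56 ± 0.18 for C1qb (3.43e-07). It was 1.92 ± 0.23 for Lgals3bp (1.44e-06), 1.28 ± 0.17 for Serpina3n (1.22e-05), 1.72 ± 0.23 for H2-D1 (1.22e-05), 1.33 ± 0.18 for Grn (1.74e-05) and 1.16 ± 0.16 for S100a6 (1.74e-05). All 10 were called in each alternative run for the difference.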

How the results depend on the processing

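With median centring 443 probe sets were called, 313 of them lower, against 243 and 83. Lower calls numbered 127 with all 34 arrays in the fit, 52 without the intensity trend, 135 with a replicate block (323 in all) and 141 with clusters of arrays by control probe sets as a block. With only the largest such cluster, 3 arrays per group and chosen after seeing the data, 54 probe sets were called, 47 higher and 7 lower, and 36 list members instead of 130, with 40 of 195 genes called and 194 in the same direction. Leaving out 1 array gave 178 to 243 calls, 122 to 164 higher and 50 to 79 lower, with the fewest lower calls without saline replicate 2, saline replicate 3 (55) or kainate replicate 4 (54). It gave 105 to 129 list members and 48 to 79 region differences. Other alternatives stayed within 1.5 times these counts. Of the 195 genes, 172 were called with median centring, 185 with the replicate block and 160 with quantile normalization. For single genes, 791 of 4629 values lost the call and 0 reversed. The causes were not tested. The labels give no basis for the shared numbers, but same-numbered hippocampal arrays fell into the same control cluster, and 3 of 5 kainate arrays correlated best with the saline array of their own number. Dim genes are limited by signal near background.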
